A study of Mus musculus with 20 samples.

Results

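Tibialis anterior muscle of untreated trans/mdx mice was set against tibialis anterior muscle of mdx mice, with 2 mice per group, so that 4 of the 20 libraries of the series form the comparison. The libraries were chosen by the column titles of the deposited table: the columns of the untreated cross against those of mdx. Untreated trans/mdx mice were bred by crossing mdx mice with a transgenic line that carries a system for placing an unnatural amino acid (UAA) at a stop codon, made by microinjecting linearized plasmid into fertilized eggs. They received no UAA and are labelled as strain C57BL/6N. Mdx mice are labelled as C57BL/10, with a nonsense mutation in the dmd gene and no transgene. Both groups therefore descend from mdx mice, and they differ in the transgene and in the strain label, which cannot be told apart here. The genotype label of the 2 untreated trans/mdx muscle libraries reads only transgenic, while their titles name the cross, and their group was taken from the titles. Neither the labels nor the protocols state age, sex or the promoter of the transgene, and no transgene sequence is among the genes analysed, so carriage of the system could not be checked. The other muscle groups were UAA-treated trans/mdx mice (50 mg of NAEK, a lysine derivative, every few days for 4 weeks), transgenic mice and wild-type mice, also with 2 mice each. The strain labels of these groups are not given here, and the part of strain in levels set against them was not tested.

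Dystrophin links the actin cytoskeleton of the muscle fibre to the surrounding matrix through a membrane complex, and fibres without it are torn by contraction. Mdx muscle is known for cycles of fibre death and regeneration, infiltration by macrophages and deposition of matrix by fibroblasts and fibro-adipogenic progenitors, which can also become fat cells. The tibialis anterior is a fast muscle of the lower leg. A stop codon can be read through where a suppressor tRNA charged with a UAA competes with the release factors. The comparison asks what the machinery for this, without its amino acid, goes along with in dystrophic muscle.

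Levels are FPKM, fragments scaled to transcript length and to the mapped fragments of the library, as the authors deposited them for 22564 genes. The steps between low values implied 2155172 to 2358491 fragments in each of the 4 libraries, and 1 fragment on a transcript of 1 kb was worth 0.424 to 0.464 FPKM, so a level near 1 FPKM rests on a few fragments. Untreated trans/mdx libraries had 7002 and 6839 genes at 1 FPKM or more, and mdx libraries had 6798 and 6875. Libraries of a group correlated across genes at r = 0.891 in untreated trans/mdx and 0.861 in mdx muscle, the lowest of the muscle groups, with genes not being independent replicates. An exact 0 in this table can be a failed estimate. For example, mt-Nd1, a message of every cell with mitochondria, was at 0 in the 4 heart libraries of these groups. Some genes were at 0 in a muscle library although the median over the other muscle libraries reached 5 FPKM. They numbered 4 and 0 in the untreated trans/mdx libraries and 8 and 6 in the mdx libraries. No fold is given for a gene that is at 0 in both libraries of a group. Among the libraries outside the comparison, wild-type replicate 2 stood apart with 8530 genes at 1 FPKM or more, and among those compared mdx replicate 2 stood apart in granulocyte genes, described below. Muscle identity was plain in all 4: fast myosin Myh4 was at 4471 and 3598 FPKM in untreated trans/mdx and 4434 and 3882 FPKM in mdx, while skeletal actin Acta1 was at 2886 and 2214 FPKM in untreated trans/mdx and 2983 and 2490.2 FPKM in mdx.

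Of 9126 genes tested with limma on log2(FPKM + 1), none passed a Benjamini-Hochberg adjusted p of 0.05 (0% called), and the smallest adjusted p was 0.381. At an unadjusted p under 0.05 there were 486 genes (5.33% of those tested), of which 298 (3.27%) were higher and 188 (2.06%) were lower in untreated trans/mdx. When the libraries were rescaled so that their distributions or typical genes matched, the split was 322 higher and 321 lower by quantile normalization and 310 higher and 336 lower by median-of-ratios scaling, so the excess of higher genes depended on the scaling. Both untreated trans/mdx libraries lay above both mdx libraries for 1833 genes (20.1%) and below both for 1267 genes (13.9%). The median log2 change of all tested genes, untreated trans/mdx minus mdx, was 0.07. With 2 against 2 mice an exact permutation test of a single gene cannot go below p = 0.333, and limma takes its error from all 5 muscle groups, with 5 residual degrees of freedom. The genes below are therefore described by their levels, and none of them is called as changed.

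Dystrophin was first among the genes to look at, because both groups descend from mice with the mutated locus. Carriage of the mutation was not checked here. Dmd (mm10 chromosome X, 82948870 to 85206141, plus strand) was at 30.8 and 17.5 FPKM in untreated trans/mdx and 33.7 and 22.0 FPKM in mdx muscle. The groups overlapped, with a log2 change of -0.22 (SE 0.40), and the level of the whole gene does not show the stop codon. Utrn, which encodes the dystrophin relative utrophin, was at 2.97 and 3.35 FPKM in untreated trans/mdx and 2.68 and 2.74 FPKM in mdx, a log2 change of 0.16 (SE 0.36). Of 33 tested genes of the dystrophin complex and its partners, 20 lay above 0 and 13 below, with a median log2 change of 0.11. Only 1 was higher at an unadjusted p under 0.05 (3.27% of all genes were), and none was lower. That gene was Nos1, the neuronal nitric oxide synthase that docks on the complex, at 13.5 and 7.91 FPKM in untreated trans/mdx and 5.85 and 3.41 FPKM in mdx muscle. Both untreated trans/mdx libraries were above both mdx libraries (log2 change 1.05, SE 0.39; limma adjusted p = 0.927).

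Among the 12 higher genes of smallest p, 8 were lower in the mdx pair than in each of the other 8 muscle libraries. Over all 9126 tested genes, not chosen for the contrast, the mdx pair lay below the other 8 for 424 and above for 91. The untreated trans/mdx pair lay below the other 8 for 180 genes and above for 97. The transgenic pair lay below for 273 and above for 88, and the treated trans/mdx pair for 193 and 130. The wild-type pair lay below for 25 and above for 849, so every group but wild type was more often below than above. Tmem100, which encodes a small membrane protein of the endothelium and of neurons (mm10 chromosome 11, 90030348 to 90036508, plus strand), was at 5.05 and 3.21 FPKM in untreated trans/mdx and 0.27 and 0.292 FPKM in mdx. The other 6 muscle libraries had 2.46 to 6.01 FPKM, so the mdx pair lay below all other 8 libraries (log2 change against mdx 1.98, SE 0.43; limma adjusted p = 0.608). Med28, a Mediator subunit, was at 2.76 and 4.17 FPKM in untreated trans/mdx and 0.294 and 0.106 FPKM in mdx (log2 change 1.88, SE 0.41). Here too the mdx pair lay below all the others, at under the value of 1 fragment on 1 kb. Atg7, the E1-like enzyme of autophagy, was at 3.09 and 1.5 FPKM in untreated trans/mdx and at 0 in each mdx library.

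Pttg1, which encodes securin, the inhibitor of separase (mm10 chromosome 11, 43420250 to 43426251, minus strand), was at 14.0 and 1.85 FPKM in untreated trans/mdx muscle and had a listed value of 0 in each mdx muscle. The 6 other muscle libraries held 2.06 to 15.3 FPKM. The heart libraries of the same groups showed the same split, with 8.95 and 8.54 FPKM in untreated trans/mdx and 0 listed in both mdx hearts. Pttg1 was thus read in both untreated trans/mdx samples of each tissue and in no mdx sample of either (unadjusted p = 0.0011 in muscle, limma adjusted p = 0.714). The mdx mice also differ in strain label from the untreated trans/mdx mice.

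Igfn1 had the largest log2 change of these 12. It encodes an immunoglobulin and fibronectin domain protein of the Z-disc (mm10 chromosome 1, 135953578 to 136006342, minus strand) and was at 37.4 and 9.85 FPKM in untreated trans/mdx and 0.829 and 2.27 FPKM in mdx muscle (log2 change 3.06, SE 0.68; limma adjusted p = 0.614). The levels were also spread within wild-type muscles, at 0.739 and 3.56 FPKM, and treated trans/mdx muscles, at 14.6 and 3.83 FPKM. Transgenic muscles were closer together, at 17.0 and 21.6 FPKM. The transgenic levels thus lay between those of the untreated trans/mdx pair, and the wild-type levels were near those of mdx. Cat, which encodes catalase, was at 11.6 and 15.1 FPKM in untreated trans/mdx and 5.82 and 4.78 FPKM in mdx (log2 change 1.19, SE 0.32). Ncor1, a corepressor that binds nuclear receptors, was at 33.3 and 49.1 FPKM in untreated trans/mdx and 21.2 and 11.2 FPKM in mdx (log2 change 1.33, SE 0.36). For both genes the mdx pair lay below all the other 8 muscle libraries.

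The other 5 of the 12 were Wdr83, Fam189b, Ap1s1, a subunit of a clathrin adaptor, Mpdu1, which serves the use of dolichol-linked mannose in glycosylation, and Smco4, with 1.36 to 5.79 FPKM in untreated trans/mdx and at most 1.09 FPKM in mdx muscle. The untreated trans/mdx pair lay above all the other 8 libraries for 5 of the 12, and Fam189b and Ap1s1 were also among the 8 with mdx lowest, while Igfn1 had neither. All 12 were picked by this contrast, so these counts only describe them.

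**Figure D1:**
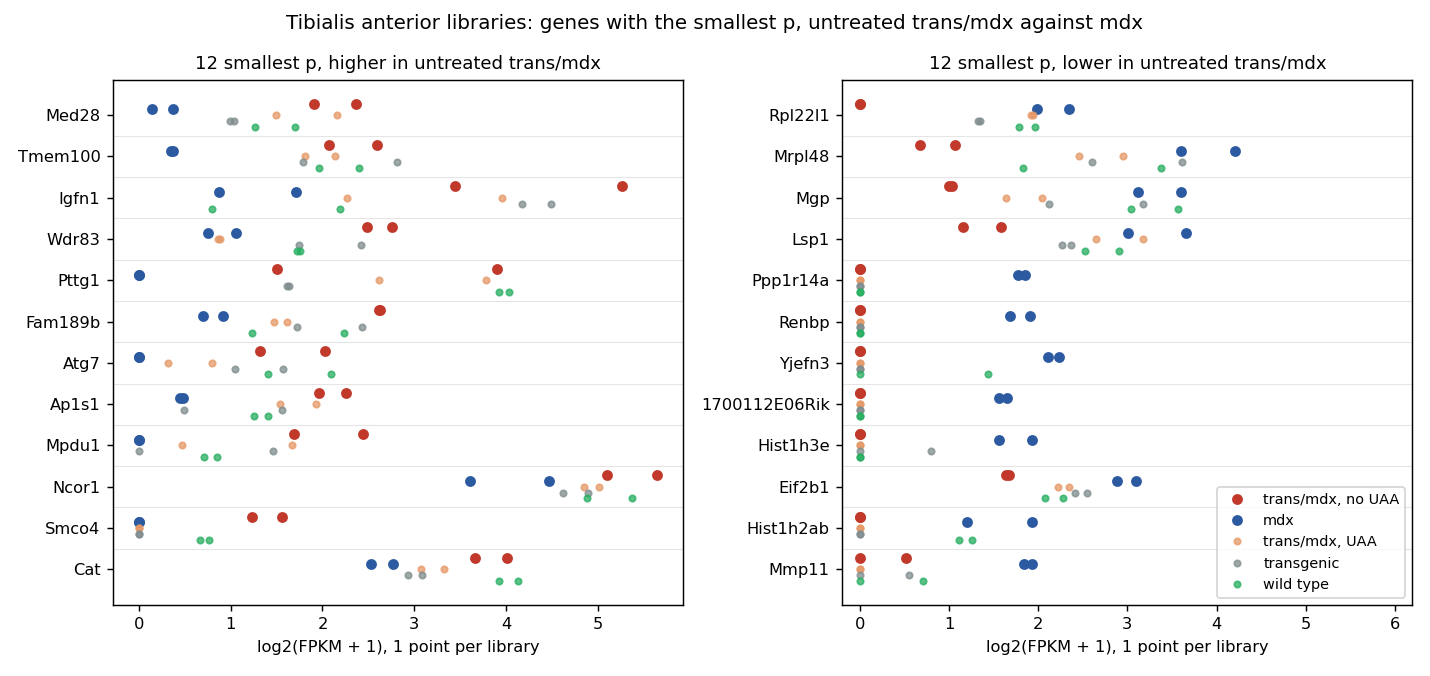
Levels, as log2(FPKM + 1) on the horizontal axis, of 24 genes (the 12 of lowest p in either direction), with 1 point per tibialis anterior library and colours for the 5 groups. Within each gene the untreated trans/mdx points are drawn on top and the mdx points under them, and for Pttg1, Atg7, Mpdu1 and Smco4 both mdx points lie at or next to 0.

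Among the 12 lower genes of smallest p, Mgp stood well above the level of single fragments in mdx muscle. Its untreated trans/mdx levels, near 1 FPKM, rest on a few fragments. It encodes matrix Gla protein, an inhibitor of calcification made by fibroblasts, smooth muscle and cartilage (mm10 chromosome 6, 136872435 to 136875823, minus strand). Mgp was at 1.05 and 1.0 FPKM in untreated trans/mdx and 11.1 and 7.71 FPKM in mdx muscle (log2 change -2.34, SE 0.42; limma adjusted p = 0.381). Wild-type muscles had 10.9 and 7.22 FPKM, transgenic 8.02 and 3.35 FPKM and treated trans/mdx 3.10 and 2.11 FPKM, so the untreated trans/mdx pair was below all the other 8 and mdx was near wild type. Lsp1, a leukocyte and endothelial protein that binds actin, was at 1.99 and 1.23 FPKM in untreated trans/mdx and 11.6 and 7.02 FPKM in mdx (log2 change -1.96, SE 0.39). The untreated trans/mdx pair was again the lowest of the 10 libraries.

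Mrpl48, a protein of the mitochondrial ribosome, was at 1.09 and 0.597 FPKM in untreated trans/mdx and 17.5 and 11.1 FPKM in mdx (log2 change -3.03, SE 0.53; limma adjusted p = 0.381). The other groups ranged between 2.54 and 11.3 FPKM. Rpl22l1, a paralogue of ribosomal protein L22 (mm10 chromosome 3, 28805436 to 28807424, plus strand), had the smallest p. It was listed at 0 in both untreated trans/mdx libraries and was at 4.08 and 2.97 FPKM in mdx, while the other 6 muscle libraries had 1.49 to 2.91 FPKM (limma adjusted p = 0.381). Eif2b1, a subunit of the exchange factor that reloads eIF2 with GTP, was at 2.19 and 2.11 FPKM in untreated trans/mdx and 6.40 and 7.54 FPKM in mdx (log2 change -1.34, SE 0.34). For Rpl22l1 and Eif2b1 both statements held, with untreated trans/mdx below and mdx above all the other 8.

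The remaining 7 were Ppp1r14a, an inhibitor of myosin phosphatase in smooth muscle, the renin-binding protein gene Renbp, Yjefn3, 1700112E06Rik, the clustered histone genes Hist1h3e and Hist1h2ab, and the metalloprotease gene Mmp11. They were at 1.29 to 3.68 FPKM in mdx and at 0 in both untreated trans/mdx libraries, except Mmp11, which had 0.423 FPKM in untreated trans/mdx replicate 1. Ppp1r14a, Renbp, 1700112E06Rik, Hist1h3e and Mmp11 reached 1 FPKM in no muscle library other than the mdx pair. They entered the test through the mdx libraries alone and so had to differ; 11 tested genes were of this kind, and 11 passed through the untreated trans/mdx pair alone, among them Smco4.

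Fat cell genes were the list with the highest median. All 14 tested adipocyte genes had a log2 change above 0, with a median of 0.83 against 0.07 over all genes. Of these, 5 were higher at an unadjusted p under 0.05 (3.27% of all genes were), 8 had groups that did not overlap (20.1% of all genes), and none passed the adjusted threshold. Cfd, which encodes adipsin, a complement protease secreted by fat cells (mm10 chromosome 10, 79890853 to 79892655, plus strand), was at 30.3 and 66.4 FPKM in untreated trans/mdx and 4.59 and 8.09 FPKM in mdx muscle. The groups did not overlap (log2 change 2.69, SE 0.91; limma adjusted p = 0.927). Scd1, the stearoyl-CoA desaturase that makes monounsaturated fatty acids, was at 44.9 and 72.6 FPKM in untreated trans/mdx and 16.1 and 8.48 FPKM in mdx (log2 change 2.19, SE 0.99). Plin1, the coat protein of the fat cell's lipid droplet, was at 2.39 and 4.80 FPKM in untreated trans/mdx and 1.02 and 0.552 FPKM in mdx (log2 change 1.32, SE 0.47).

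Fabp4, a fatty acid carrier of fat cells and capillary endothelium, was at 77.7 and 114 FPKM in untreated trans/mdx and 29.7 and 55.4 FPKM in mdx. Lpl, the lipase that frees fatty acids from lipoproteins and is also made by muscle fibres, was at 25.6 and 36.4 FPKM in untreated trans/mdx and 25.2 and 11.2 FPKM in mdx. In both genes the pairs were apart, by a small step for Lpl. Adipoq, the fat cell hormone adiponectin, overlapped, with 3.99 and 8.75 FPKM in untreated trans/mdx and 3.43 and 5.06 FPKM in mdx, and the brown fat gene Ucp1 was at 0 in all 4 libraries.

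The adipocyte levels also differed between mice of one group. The summed FPKM of the list was 508 and 710 in untreated trans/mdx and 200 and 442 in mdx muscle, against 421 and 312 in treated trans/mdx, 585 and 490 in transgenic and 401 and 615 in wild-type muscle. For Cfd the wild-type mice alone spanned 3.08 and 61.5 FPKM, and for Scd1 2.49 and 78.2 FPKM, a span as wide as that of the 4 libraries compared. Without untreated trans/mdx replicate 2 the median was 0.55, with 11 of 14 above 0, and without mdx replicate 2 it was 0.72, also with 11 of 14. In bulk muscle, more fat cells and more RNA per fat cell cannot be told apart, and this holds for every cell type described here.

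Matrix genes lay the other way. Of 15 tested collagen genes 14 had a log2 change below 0, with a median of -0.56, and for 10 both untreated trans/mdx libraries were below both mdx libraries (13.9% of all genes were). Col1a1, the main chain of fibrillar type I collagen, was at 3.27 and 4.44 FPKM in untreated trans/mdx and 10.5 and 8.32 FPKM in mdx (log2 change -1.10, SE 0.40; limma adjusted p = 0.927). Col3a1, the chain of type III collagen, was at 7.38 and 6.95 FPKM in untreated trans/mdx and 12 and 25.9 FPKM in mdx. These 2 had an unadjusted p under 0.05 (2.06% of all genes were lower at that p). Col6a3, a chain of the type VI collagen around fibres, was at 2.34 and 2.75 FPKM in untreated trans/mdx and 5.38 and 7.33 FPKM in mdx (log2 change -1.04, SE 0.48). Col4a1, a chain of the basement membrane, was the exception, at 6.19 and 6.15 FPKM in untreated trans/mdx and 4.41 and 7.72 FPKM in mdx.

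Among 28 other matrix genes, 23 were below 0 with a median of -0.38. For 14 of them the groups were apart in the lower direction (13.9% of all genes were). An unadjusted p under 0.05 was reached by 6, all lower (2.06% of all genes were lower at that p). One of them was Mgp, above. Postn, the matricellular protein periostin made by activated fibroblasts, was at 0.972 and 0.784 FPKM in untreated trans/mdx and 3.61 and 3.45 FPKM in mdx (log2 change -1.27, SE 0.38; limma adjusted p = 0.913). Lum, the collagen-binding proteoglycan lumican, was at 0.706 and 2.02 FPKM in untreated trans/mdx and 4.52 and 6.36 FPKM in mdx (log2 change -1.49, SE 0.49). The matrix metalloprotease Mmp2 was at 1.72 and 2.08 FPKM in untreated trans/mdx and 4.21 and 6.33 FPKM in mdx. Tgfbi, a secreted protein induced by TGF-beta, and Loxl1, an elastin crosslinking enzyme, were the other 2, and Loxl1 entered the test through the mdx pair alone. Sparc, a matrix protein at 20 and 24.6 FPKM in untreated trans/mdx and 24.2 and 19.5 FPKM in mdx, overlapped.

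Wild-type muscle did not mark the low end of the matrix genes. Col1a1 was at 26.1 and 45.0 FPKM in wild type, 5.79 and 6.09 FPKM in transgenic and 2.24 and 5.0 FPKM in treated trans/mdx muscle, so the mdx pair was below the wild-type pair and above the other 6 libraries. The summed FPKM of the collagen list was 45.3 and 50.9 in untreated trans/mdx and 72.0 and 99.1 in mdx. It was 39.7 and 55.4 in treated trans/mdx, 54.9 and 51.6 in transgenic and 105 and 227 in wild-type muscle, so mdx was again below wild type. Postn had a different order, with 1.11 and 2.03 FPKM in wild-type and 0.607 and 0.916 FPKM in treated trans/mdx muscle, both under the mdx pair. Without mdx replicate 2 the collagen median was -0.28 with 11 of 15 below 0, and the median of the other matrix genes was -0.54 with 22 of 28 below 0. Without mdx replicate 1 these were -0.64 and -0.20.

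**Figure D2:**
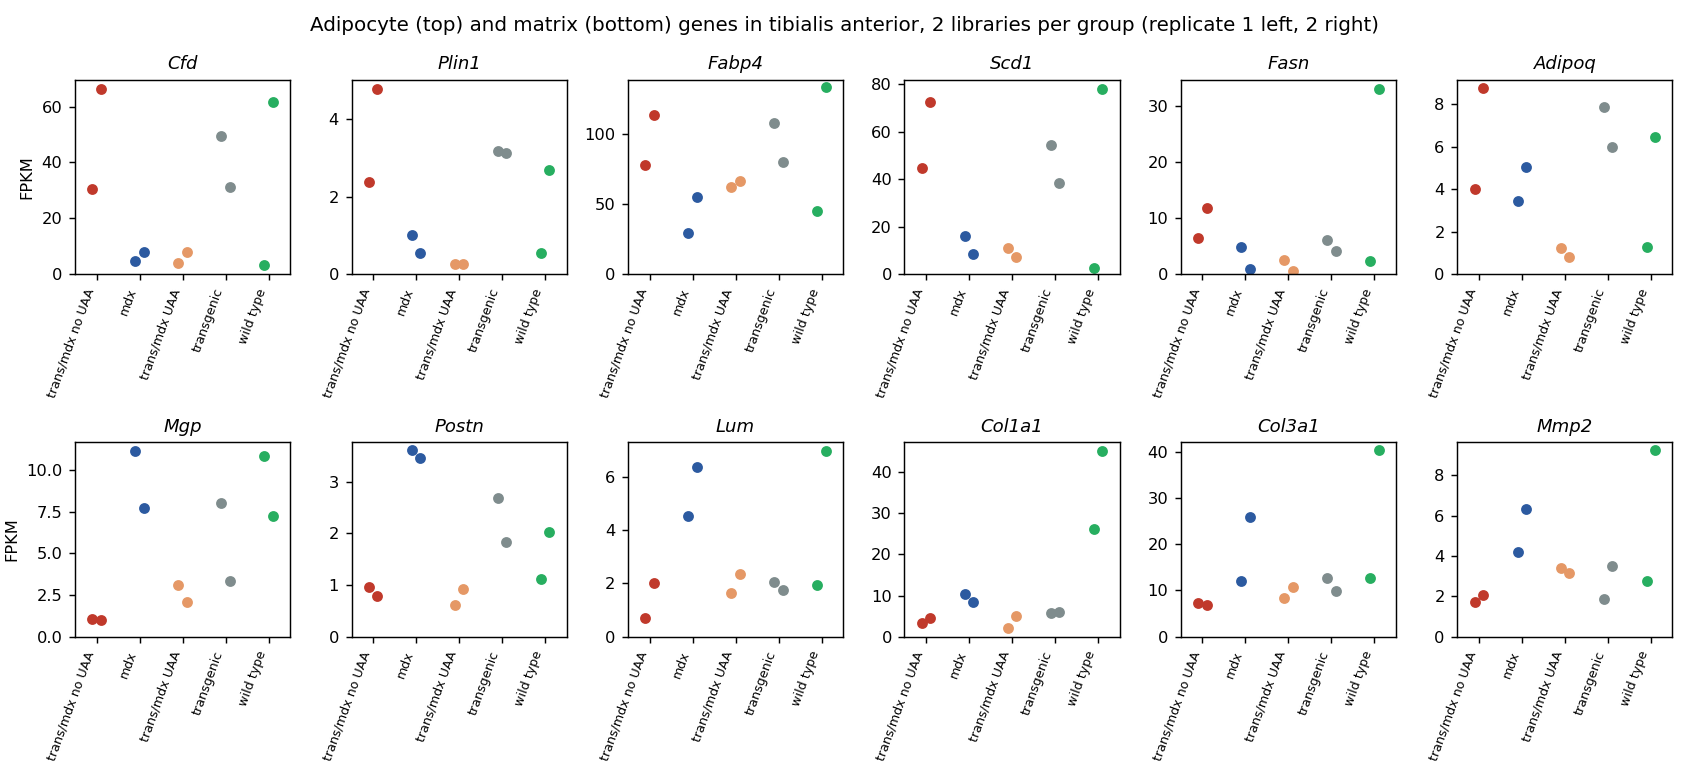
FPKM of 6 adipocyte genes (top) and 6 matrix genes (bottom) in the 5 tibialis anterior groups, with 1 point per library and the replicate 1 library on the left of each pair. Untreated trans/mdx points lie above mdx points for Cfd, Plin1, Fabp4, Scd1 and Fasn and below them for the matrix genes, while the wild-type pair spans most of the range of Cfd and Scd1.

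**Figure D3:**
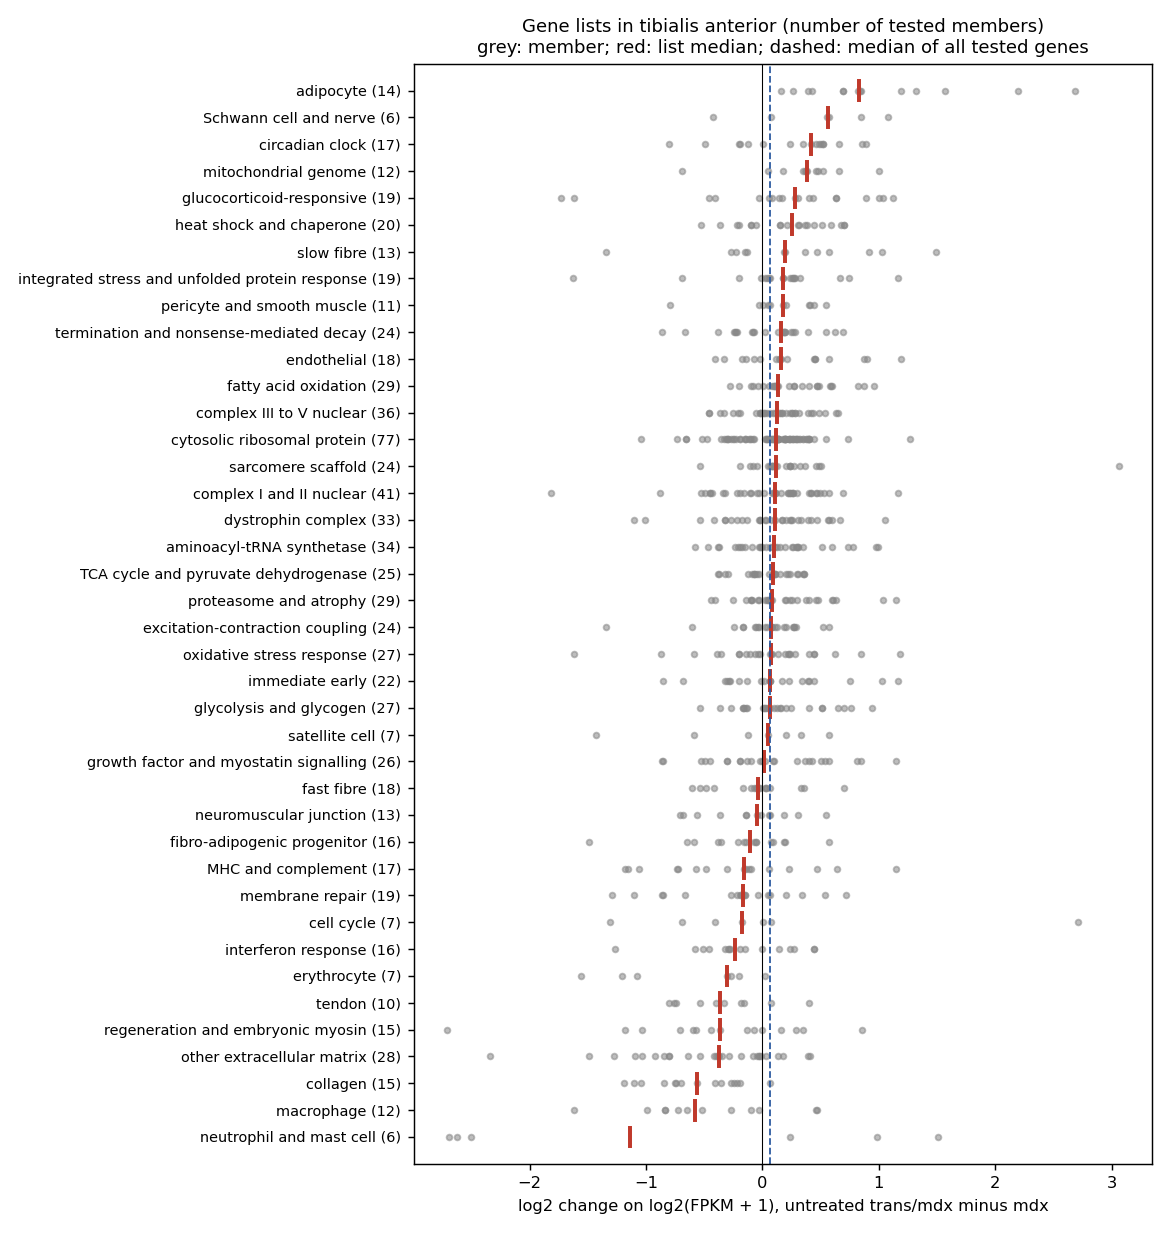
Log2 change, untreated trans/mdx minus mdx on log2(FPKM + 1), of each tested member (grey) of each gene list, with the list median in red and the median of all tested genes (0.07) dashed. The lists are ordered by median, with the neutrophil and mast cell list lowest at -1.14 and the adipocyte list highest at 0.83. The neutrophil and mast cell list has 6 tested genes, 3 above and 3 below 0. Without mdx replicate 2 its median was 0.23.

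Cells related to these lists gave smaller differences. Of 16 tested genes of fibro-adipogenic progenitors 11 were below 0 with a median of -0.11, among them Pdgfra, their surface receptor, at 0.632 and 1.13 FPKM in untreated trans/mdx and 1.82 and 2.04 FPKM in mdx. Pdgfrb, a receptor of pericytes and fibroblasts, was at 1.11 and 1.30 FPKM in untreated trans/mdx and 2.80 and 2.84 FPKM in mdx, with the groups apart. The rest of its list of pericytes and smooth muscle lay mostly the other way: 9 of 11 genes were above 0 with a median of 0.17, among them Rgs5, a marker of pericytes, at 28.3 and 36.7 FPKM in untreated trans/mdx and 22.9 and 23.9 FPKM in mdx. The 18 endothelial genes had a median of 0.16 with 12 above 0, and 3 were higher at an unadjusted p under 0.05 (3.27% of all genes were): Fabp4, Cd36, a fatty acid transporter shared with fibres, and Tek, the receptor of angiopoietins. Tek was at 1.70 and 2.34 FPKM in untreated trans/mdx and 0.48 and 0.758 FPKM in mdx. Of 10 tendon genes 8 were below 0, but their summed FPKM was 11.2 and 17.4 in untreated trans/mdx and 47.5 and 9.26 in mdx, so mdx replicate 1 was high and replicate 2 was not; without replicate 1 the median was 0.23.

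Macrophage genes differed mainly through 1 mdx library. Of 26 macrophage genes only 12 passed the filter on low values; 10 of these were below 0, with a median of -0.58. Emr1, the F4/80 antigen, was at 0 in both untreated trans/mdx and at 0 and 0.473 FPKM in mdx. Csf1r, the growth factor receptor of macrophages, was at most 0.479 FPKM, in mdx replicate 1. Not all members were this low: C1qa was at 2.06 and 0.491 FPKM in untreated trans/mdx and 2.98 and 2.15 FPKM in mdx. The summed list was at 12.4 and 16.3 FPKM in untreated trans/mdx and 12.7 and 47.6 FPKM in mdx, so mdx replicate 1 was within the untreated trans/mdx range. Ctss, a lysosomal protease of antigen-presenting cells, was at 0 and 0.36 FPKM in untreated trans/mdx and 1.09 and 5.12 FPKM in mdx. Without mdx replicate 2 the macrophage median was 0.19, with 7 of 12 above 0. None of 18 T, B and NK cell genes passed the filter.

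The neutrophil genes made the difference between the 2 mdx mice plain. Ngp, a granule protein of maturing neutrophils, was at 0 in both untreated trans/mdx libraries and at 0 and 31.2 FPKM in mdx replicates 1 and 2. S100a8 and S100a9, the calprotectin subunits, were likewise at 0 in both untreated trans/mdx libraries and in mdx replicate 1, and at 40.7 and 37.2 FPKM in mdx replicate 2. The granule genes Ltf, Camp, Mpo and Elane followed the same pattern, with 6.16, 5.46, 3.33 and 2.50 FPKM in mdx replicate 2 and 0 in the other 3 libraries. In the same library the band 3 gene of red cells, Slc4a1, was at 7.67 FPKM, the eosinophil granule gene Prg2 at 7.72 FPKM and the replication checkpoint kinase Chek1 at 10.5 FPKM, all 0 in the other 3. The medians of the macrophage, antigen presentation and collagen lists are also given without this library, and its part in them was not tested further. Mast cell genes lay the other way: Mcpt4, a mast cell chymase, was at 1.64 and 2.08 FPKM in untreated trans/mdx and at 0 in each mdx library.

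**Figure D4:**
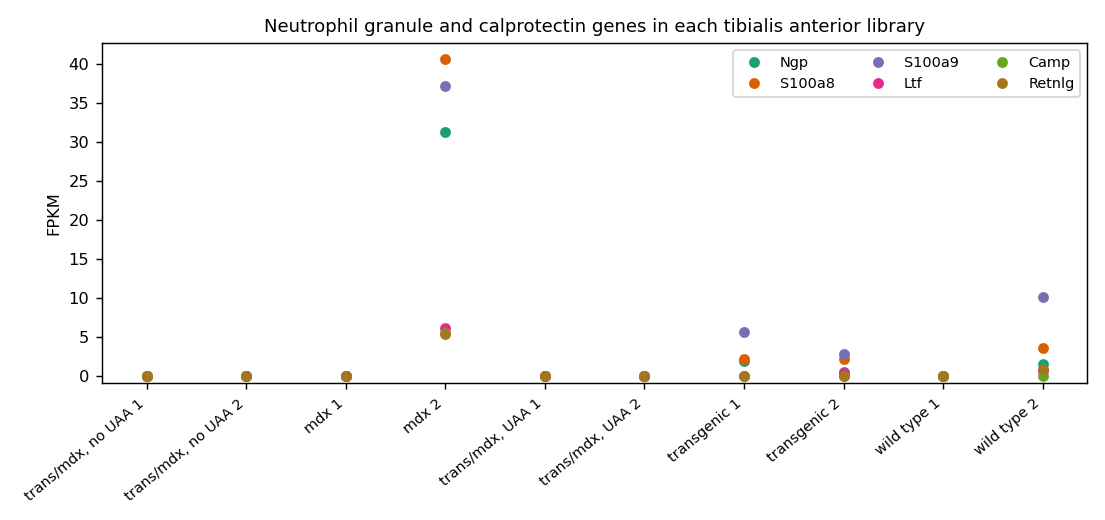
FPKM of 6 neutrophil genes in each of the 10 tibialis anterior libraries, on the horizontal axis by group and replicate. The mdx replicate 2 library holds all the high points, with S100a8 at 40.7, S100a9 at 37.2 and Ngp at 31.2 FPKM, and wild-type replicate 2 follows with S100a9 at 10.1 FPKM.

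Antigen presentation genes were lower in part. Of 17 MHC and complement genes 12 were below 0, with a median of -0.16. Without mdx replicate 2 it was -0.14, with 10 below 0. The class II chain H2-Aa was at 2.19 and 1.78 FPKM in untreated trans/mdx and 3.29 and 7.98 FPKM in mdx, and H2-Ab1 was at 0.861 and 2.75 FPKM in untreated trans/mdx and 3.73 and 6.29 FPKM in mdx. Both had groups apart, with mdx replicate 2 the highest. Tapbp, which loads peptides on class I, was on the other side, at 3.59 and 6.66 FPKM in untreated trans/mdx and 1.11 and 2.39 FPKM in mdx. Of 16 interferon response genes 11 were below 0 with a median of -0.23.

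Embryonic myosin and myogenin were low in both groups. Embryonic myosin Myh3 was at 0.385 and 0.732 FPKM in untreated trans/mdx and 0 and 1.76 FPKM in mdx, and Myog, the transcription factor of differentiating myoblasts, at 0.685 and 0 FPKM in untreated trans/mdx and 0 and 0.357 FPKM in mdx. Neither stood above a few fragments. Actc1, the cardiac actin of embryonic and regenerating fibres, was at 13.4 and 4.91 FPKM in untreated trans/mdx and 28.1 and 124 FPKM in mdx, apart by group (log2 change -2.71, SE 0.92; limma adjusted p = 0.927). Wild-type muscles had 35.3 and 122 FPKM of Actc1, as much as mdx. Igf2, a fetal growth factor, was high in mdx replicate 2 alone, at 2.35 and 2.78 FPKM in untreated trans/mdx and 2.23 and 19.1 FPKM in mdx. The regeneration list of 15 had a median of -0.37, and of 0 without mdx replicate 2. Hes1, a target of Notch that is active in satellite cells, was at 2.24 and 1.32 FPKM in untreated trans/mdx and 9.39 and 4.27 FPKM in mdx (log2 change -1.43, SE 0.48). The satellite cell list as a whole did not lie that way, with 4 of 7 tested genes above 0 and a median of 0.05.

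Fibre genes also lay close between the groups. The 18 fast fibre genes had a median of -0.04, with 7 above and 11 below 0. Myoglobin, Mb, the oxygen store of oxidative fibres, was at 283 and 446 FPKM in untreated trans/mdx and 221 and 136 FPKM in mdx, with the groups apart (log2 change 1.03, SE 0.32; limma adjusted p = 0.927). The slow myosin Myh7 was at 5.41 and 8.42 FPKM in untreated trans/mdx and 1.08 and 14.2 FPKM in mdx, and the median of 13 slow fibre genes, 0.19, was 1.0 without mdx replicate 2 and -0.79 without mdx replicate 1. Of 24 sarcomere scaffold genes 19 were above 0 with a median of 0.11, but only 13 by quantile normalization or median-of-ratios scaling.

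The proteasome and atrophy list lay close to all genes, with 20 of 29 above 0 and a median of 0.08, and with 15 of 29 above 0 by median-of-ratios scaling. Of these genes 7 had untreated trans/mdx above mdx with no overlap (20.1% of all genes did). At an unadjusted p under 0.05, 2 were higher (3.27% of all genes were). Fbxo32, the ubiquitin ligase atrogin-1, was at 24.6 and 21.7 FPKM in untreated trans/mdx and 12.7 and 9.01 FPKM in mdx (log2 change 1.04, SE 0.31; limma adjusted p = 0.913). The untreated trans/mdx pair was the highest of the 10 libraries, above the transgenic muscles at 19.5 and 20.9 FPKM. Trim63, the ligase MuRF1, was at 37.0 and 23.0 FPKM in untreated trans/mdx and 15.5 and 22.2 FPKM in mdx. Mstn, the growth inhibitor myostatin, was at 12.5 and 8.15 FPKM in untreated trans/mdx and 6.00 and 2.60 FPKM in mdx, against 12.2 and 21.1 FPKM in wild type. Of 19 glucocorticoid-responsive genes 14 were above 0 with a median of 0.28, and 3 of them (Fbxo32, Sgk1 and Ddit4) were higher at an unadjusted p under 0.05 (3.27% of all genes were). Sgk1, a kinase induced by the hormone, was at 30.1 and 53.7 FPKM in untreated trans/mdx and 17.3 and 18.7 FPKM in mdx.

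Circadian genes had the second highest median among lists of 10 or more, 0.41, with 12 of 17 above 0. Bhlhe41, a repressor of the clock, was at 8.69 and 10.3 FPKM in untreated trans/mdx and 6.57 and 3.43 FPKM in mdx. Arntl, the activator Bmal1, was at 1.31 and 1.12 FPKM in untreated trans/mdx and 0.473 and 0.341 FPKM in mdx. The repressor Per2 was on the other side at 0.168 and 0.827 FPKM in untreated trans/mdx and 1.25 and 1.89 FPKM in mdx. Its relative Per1 was not, at 8.65 and 4.05 FPKM in untreated trans/mdx and 2.96 and 2.57 FPKM in mdx, with the groups apart. The labels do not state the hour of tissue collection, and without mdx replicate 2 the median was 0.08.

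Of 12 tested genes of the mitochondrial genome 11 were above 0 with a median of 0.38. Of these, 7 had untreated trans/mdx above mdx with no overlap (20.1% of all genes did) and 3 were higher at an unadjusted p under 0.05 (3.27% of all genes were). One of the 12, mt-Nd1, a subunit of complex I, was at 11109 and 12794 FPKM in untreated trans/mdx and 9829 and 7462 FPKM in mdx. By median-of-ratios scaling the median was 0.27 with 10 above 0. By quantile normalization, which gives genes of the same rank the same value in every library, it was 0.11 with 7 above 0. Of 29 fatty acid oxidation genes 24 were above 0, with a median of 0.14. By quantile normalization 18 were above 0, by median-of-ratios scaling 20, and without mdx replicate 2 16. The 27 glycolysis and glycogen genes had a median of 0.06, and 3 were higher at an unadjusted p under 0.05 (3.27% of all genes were), among them Fbp2, the muscle fructose bisphosphatase, at 7.37 and 10.4 FPKM in untreated trans/mdx and 4.11 and 4.04 FPKM in mdx.

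The machinery of translation, on which a UAA system draws, stood close between the groups. The 34 aminoacyl-tRNA synthetases had a median log2 change of 0.09 and the 24 genes of termination and nonsense-mediated decay 0.16, against 0.07 over all genes. Neither list had a gene past the adjusted threshold. Of the synthetases 1 was higher at an unadjusted p under 0.05 (3.27% of all genes were). It was the mitochondrial Yars2, at 1.64 and 1.37 FPKM in untreated trans/mdx and 0.614 and 0 FPKM in mdx. The 77 cytosolic ribosomal protein genes had a median of 0.12, which was -0.01 by quantile normalization. Of 19 genes of the integrated stress and unfolded protein responses 15 were above 0 with a median of 0.18. By quantile normalization 13 were above 0, by median-of-ratios scaling 11, and without mdx replicate 1 10. Ddit3, the stress factor CHOP, was on the other side, at 0.561 and 0.594 FPKM in untreated trans/mdx and 4.70 and 3.19 FPKM in mdx (log2 change -1.63, SE 0.53; limma adjusted p = 0.927). Treated trans/mdx muscles had 6.71 and 1.61 FPKM of Ddit3 and transgenic muscles 0.614 and 0 FPKM. Wild-type muscles had 2.91 and 5.89 FPKM, so the mdx levels lay within the wild-type range.

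The same contrast in heart gave a test of whether muscle stood apart. In the fit of all 20 libraries none of 10085 genes passed for the difference, muscle minus heart (0% called), and the smallest adjusted p was 0.344. At an unadjusted p under 0.05, 479 genes (4.75%) had the higher change in muscle and 87 (0.863%) the lower. The heart change had a median of -0.26 over the 8269 genes tested there, of which 6073 were below 0, against a median of 0.07 in muscle. Untreated trans/mdx hearts had 6047 and 5113 genes at 1 FPKM or more and mdx hearts 5715 and 7352, and the part of this in the heart values was not tested. For matrix genes outside the collagens, all 23 tested in heart were below 0 there with a median of -0.58, and 18 of the 23 tested in both tissues were below 0 in both. Postn was at 3.28 and 1.87 FPKM in untreated trans/mdx hearts and 10.1 and 8.58 FPKM in mdx hearts. Of 11 adipocyte genes tested in heart, 10 were below 0 there and none above, with a median of -0.27, near that of all heart genes. The difference between tissues was called for none of 15 adipocyte genes, and 4 had an unadjusted p under 0.05 with the higher change in muscle.

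Rpl22l1 had one of the smallest p for the tissue difference. Its heart levels were 0 and 1.83 FPKM in untreated trans/mdx and 0 in both mdx, against 0 in untreated trans/mdx muscle, so no size is given for the difference (lower in muscle; limma adjusted p = 0.344). Txnip, an inhibitor of thioredoxin and of glucose uptake, was at 71.0 and 67.7 FPKM in untreated trans/mdx muscle and 46.7 and 42.4 FPKM in mdx muscle. In heart Txnip was at 14.2 and 6.25 FPKM in untreated trans/mdx and 32.0 and 38.9 FPKM in mdx, so the pairs were apart in opposite directions (difference 2.42, limma adjusted p = 0.344).

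**Figure D5:**
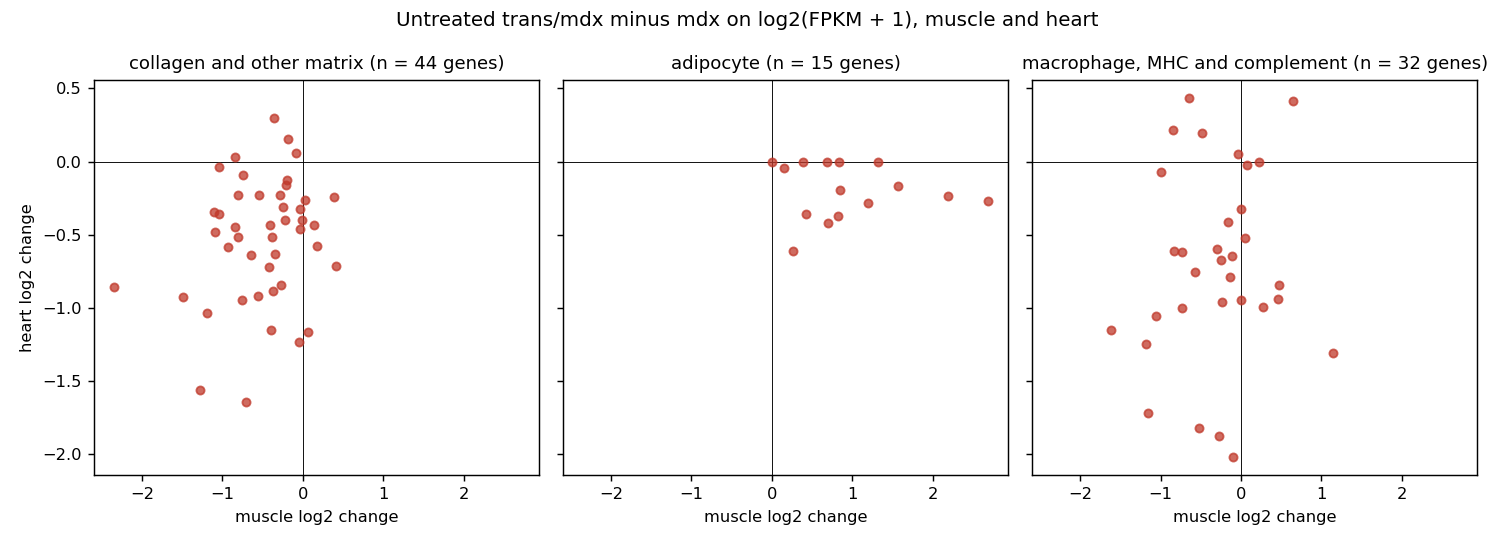
Log2 change, untreated trans/mdx minus mdx on log2(FPKM + 1), in muscle (horizontal axis) and heart (vertical axis), with 1 point per gene for 44 matrix genes (left), 15 adipocyte genes (middle) and 32 macrophage, MHC and complement genes (right). Of the matrix genes 34 lie to the left of 0 and below 0, while 10 adipocyte genes are right of 0 and below 0 and the other 5 have a heart change of 0.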

How the data were processed

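RNA from tibialis anterior muscle and heart was depleted of ribosomal RNA and made into directional libraries, per the labels' protocols. The authors deposited 1 table of FPKM for 22564 genes in 20 libraries. HISAT2 2.0.4, cutadapt 1.9.3, Cuffdiff, Cufflinks and mm10 stand in the submitters' processing notes with no role stated, and the annotation and strand use are unstated. No counts were used, so no count model was fitted, and depth was read from the steps of low FPKM, of which 83.5 to 87.3% lay within 0.1 step of a whole number in the 4 libraries. FPKM were not rescaled, and their sums were 158190 and 155367 in untreated trans/mdx and 147359 and 136461 in mdx muscle. Lars2 alone took 15.3 and 16.2% of the sum in untreated trans/mdx and 15.1 and 19.2% in mdx. 1 line of the table had been emptied.

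Genes that reached 1 FPKM in 2 or more of the 10 muscle libraries were kept. Their log2(FPKM + 1) values entered a limma fit (version 3.58.1, R 4.3.3) that had group coefficients and an intensity trend. Tests were two-sided, and p-values were adjusted by Benjamini-Hochberg with a threshold of 0.05. The tissue difference was fitted on all 20 libraries. The fit was tested on simulated data. A log2 change on this scale understates that of low genes. Where the labels call 2 samples replicates, the protocols speak of different mice.

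Named genes were Dmd, Utrn, the 12 of smallest p per direction, up to 4 members of smallest p from each of 41 gene lists, and the 4 of smallest p per direction for the tissue difference. Adipoq, Ucp1, Fasn, Col4a1, Sparc, Emr1, Csf1r, S100a9, Ltf, Camp, Mpo, Elane, Prg2, Chek1, Myh3, Myh4, Myh7, Myog, Acta1, Mmp2 and Tgfbi, outside this rule, were chosen after their values were seen. Members, lists and tests were chosen with earlier results of these data known. Coordinates are whole-gene spans of GENCODE M21 on mm10, 1-based. The pseudocount, filter, scaling, libraries in the fit and a replicate block were varied.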

Additional observations from a re-analysis of the deposited data

How the results depend on the processing

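The absence of called genes held in 15 of 18 alternatives. With a pseudocount of 0.1 FPKM 1 gene was called, Rpl22l1 (lower), and with no filter 3, Renbp, Ppp1r14a and 1700112E06Rik (all lower and at 0 in both untreated trans/mdx libraries). Leaving out each library in turn gave 0 to 2 calls, with 0 to 1 in each direction. The 2 came without mdx replicate 1 (D8Ertd738e higher and Ngp lower, adjusted p = 0.0497), which leaves the other mdx library alone, assumed to vary like the other groups. For the tissue difference 3 genes were called with no filter (Il18, Mup7 and 1700112E06Rik), 1 by quantile normalization (mt-Cytb) and 0 to 2 without single libraries.

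At an unadjusted p under 0.05 a mean of 5 FPKM or more, which tests fewer genes, left 127 genes, 96 higher and 31 lower. Quantile normalization gave 321 lower and median-of-ratios scaling 336 lower. Leaving out single libraries gave 370 to 628, with 198 higher without mdx replicate 2 and up to 374, and 146 to 263 lower. The median of all genes was 0 with no filter, 0.14 at a mean of 5 FPKM or more, 0.0045 by quantile normalization, -0.0035 by median-of-ratios scaling, and 0.0237 to 0.114 without single libraries. The cause of these shifts was not tested.

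Of 80 named genes followed through the alternatives, 9 changed sign in at least 1 alternative. By quantile normalization Col4a1 was at -0.0106 and Sparc at -0.107, and by median-of-ratios scaling they were at -0.0347 and -0.075. Without single libraries the range was -0.28 to 0.41 for Col4a1, -0.12 to 0.18 for Sparc, -0.61 to 0.17 for Dmd, -2.50 to 0.14 for Igf2, -0.30 to 0.0826 for Acta1, -0.21 to 0.11 for Myh4, -0.96 to 1.9 for Myh7, -0.22 to 0.53 for Myog and -0.0537 to 0.91 for Adipoq. The cause was not tested. Of 40 lists, 24 had no median of the other sign in any alternative, the adipocyte list at 0.55 to 1.19, collagens at -0.74 to -0.28 and other matrix at -0.54 to -0.20.

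No pairing by replicate number was seen: deviations of same-numbered libraries correlated at -0.054 to 0.041 between muscle groups. Between heart and muscle of a group they correlated at -0.0198 to 0.0099. At this low depth, correlations near 0 do not show that the mice were unpaired. With the replicate block 0 genes were called, with 287 higher and 197 lower at an unadjusted p under 0.05. With 2 mice per group, low depth and strain tied to genotype, differences under the spread within groups were not detectable, and a missed threshold does not show equality.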
